A study of Homo sapiens with 2 samples.

Results

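The genes described here are 10 genes of transforming growth factor beta (TGF-beta) signalling: the ligands TGFB1 and TGFB2, the receptors TGFBR1, TGFBR2 and TGFBR3, the signal transducer SMAD3, the inhibitors SKIL and PMEPA1, and the targets CCN2 and TGFBI. They were chosen by name, with earlier results of these data known, out of 19775 genes named on the array. Every probe set annotated to them was taken. All 10 were found, on 28 of the 54675 probe sets. The measurements came from KYSE-140, an established cell line of human esophageal squamous cell carcinoma. Its cells were parted by flow cytometry into a fraction with the surface protein CD90 and a fraction without it, and total RNA of each was hybridised to a one-colour Affymetrix array, the U133 Plus 2.0. There was 1 array of CD90+ cells and 1 of CD90- cells, with no further treatment named in the labels. No sort was repeated, so the values below have no replicate error, the populations could not be tested against each other, and each fold holds for these 2 RNA samples.

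TGF-beta ligands are secreted in a latent form and, once released, bind the type II receptor TGFBR2, which phosphorylates the type I receptor TGFBR1. TGFBR1 then phosphorylates SMAD2 and SMAD3, which join SMAD4, enter the nucleus and act on target genes, some of which encode inhibitors that restrain the pathway. In squamous epithelia the pathway is known for arresting keratinocyte growth, and in carcinoma cells for a role in epithelial-mesenchymal transition and invasion.

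Signals are in the arbitrary units of MAS5, the Affymetrix algorithm that gives 1 value for each probe set, a group of short probes for 1 transcript. The authors' scaling left both arrays with a trimmed mean of 499.9 between the 2nd and 98th percentiles, and 50.1% of probe sets on the CD90+ array and 49.9% on the CD90- array reached a common floor of 71.6, the median signal. Signals under the floor were set to it before a ratio was taken. A gene is represented by its probe set with the highest mean signal and counts as measured where that signal came up to the floor on either array. Levels of different probe sets cannot be compared with each other. Probe sets of the same gene, which share the RNA and the array, had log2 ratios with a pooled SD of 0.31 over 6188 genes.

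All 10 genes were measured. CCN2, PMEPA1 and TGFBR2 were at least 2-fold higher in CD90+ cells, and none of the 10 was at least 2-fold lower. Among the 12466 genes measured, 2.47% were higher and 1.75% lower by at least that much. At a smaller difference of 1.5-fold, TGFBI and TGFB2 joined the higher genes, giving 5 of 10 higher and 0 lower, where 7.37% of all measured genes were higher and 6.76% lower by that much. The other 5, TGFBR1, TGFBR3, TGFB1, SMAD3 and SKIL, lay within 1.2-fold. The median log2 ratio of the 10 was 0.52, against 0.01 for all measured genes. Because the 10 were chosen with earlier results of these data known, these comparisons are no test of the pathway. Ratios in bulk RNA do not tell a larger share of expressing cells from more RNA in each cell.

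**Figure D1:**
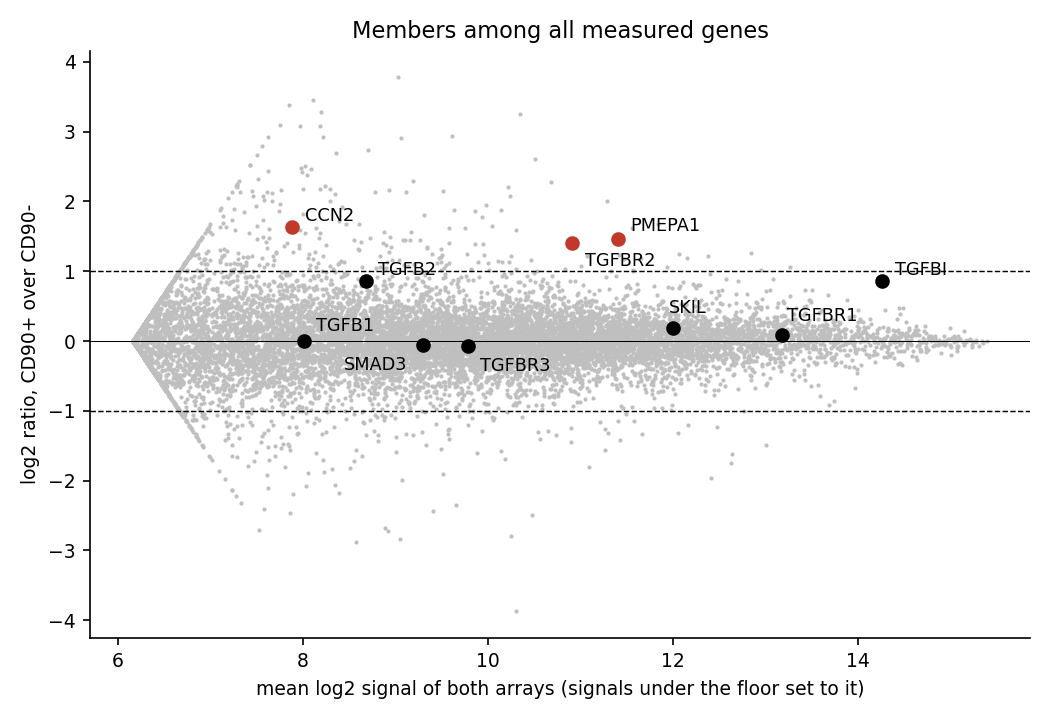
The log2 ratio of CD90+ over CD90- cells is plotted on the vertical axis against the mean log2 signal of both arrays on the horizontal axis for the 12466 measured genes, with the 10 TGF-beta genes named and dashed lines at 2-fold. CCN2, PMEPA1 and TGFBR2 (red) lie above the upper line, TGFBI and TGFB2 just below it at 0.86 and 0.85, and the other 5 near 0.

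Agreement among probe sets varied from gene to gene. Of the 28 probe sets 20 were measured and 8 stayed under the floor on both arrays. Among those measured, 16 had a log2 ratio above 0 and 4 below it, but probe sets of the same gene are not independent. By representative probe set, 7 of the 10 genes were above 0, where 51.2% of all measured genes were. By 2-fold or more, 5 probe sets were higher, 3 of them of PMEPA1, and 0 were lower. Of all measured probe sets with a gene name, 1.98% were higher and 1.56% lower by that much. TGFBI, CCN2 and TGFB1 each rested on a single measured probe set.

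**Figure D2:**
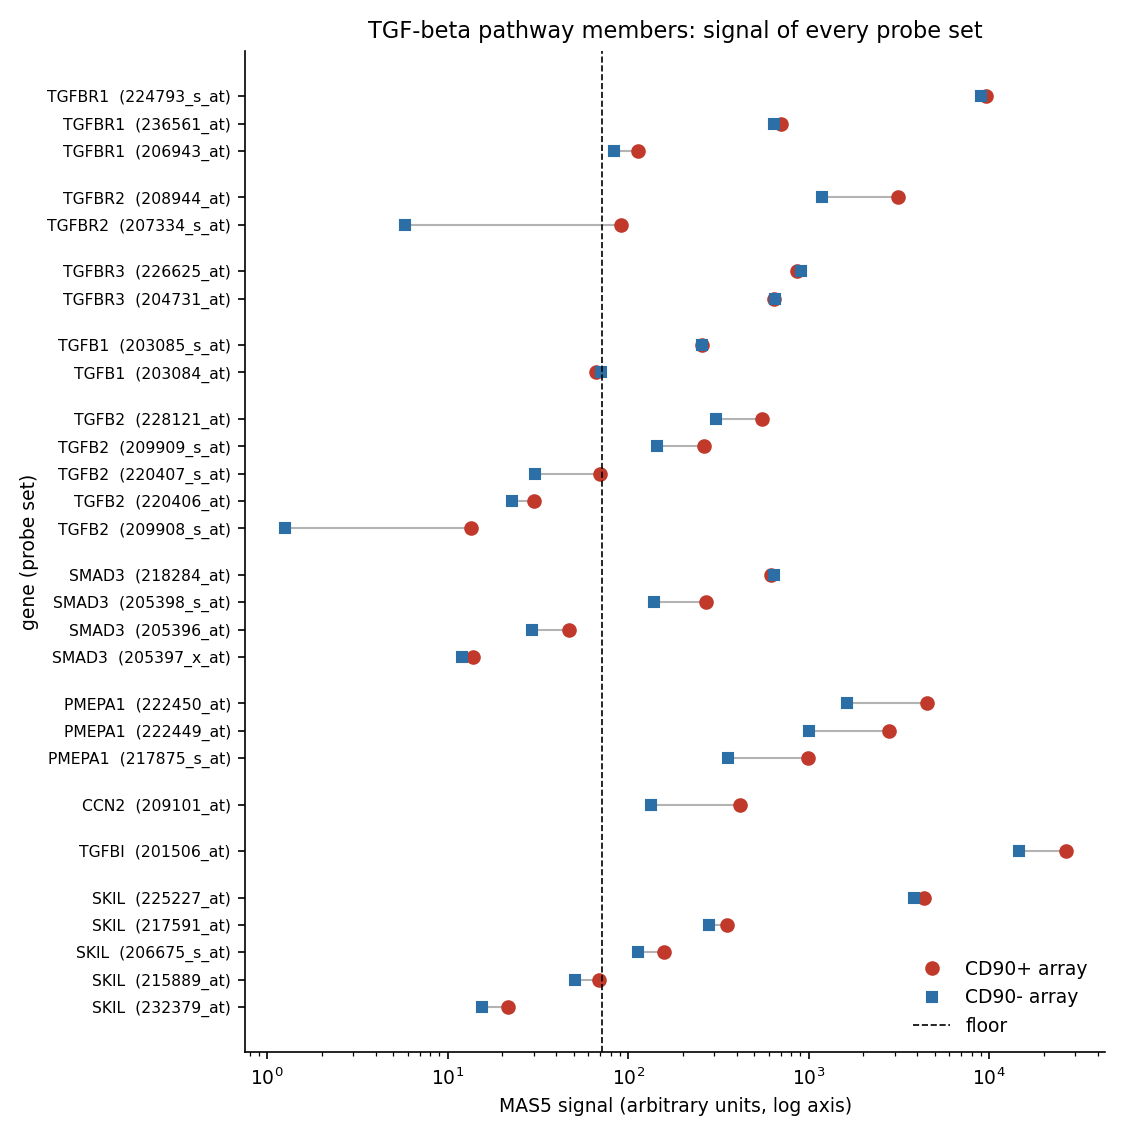
Each row is 1 probe set of a TGF-beta gene, with its signal on the CD90+ array (red circle) and the CD90- array (blue square) on a log axis and the floor of 71.6 as a dashed line. The 3 PMEPA1 probe sets keep the same distance between the arrays, whereas the probe sets of SMAD3 and TGFBR2 differ in theirs.

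The receptors did not move together. TGFBR2, the type II receptor that binds ligand first, read 3137 in CD90+ cells against 1186 in CD90- cells on its representative probe set, which is 2.65-fold or 1.40 as a log2 ratio. That ratio exceeded those of 98.9% of measured genes. Its second probe set read 91.1 in CD90+ and 5.80 in CD90- cells, so it reached the floor on the CD90+ array alone and gave a bound of at least 1.27-fold. Both probe sets were higher in CD90+ cells, but the ratio of the second is a bound set by the floor, so the mean of both is a bound as well, of at least log2 0.88. The 50 genes nearest to TGFBR2 on chromosome 3 had a median log2 ratio of -0.05.

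TGFBR1, the type I receptor kinase that TGFBR2 activates, read 9577 in CD90+ and 9044 in CD90- cells, or 1.06-fold. Its other probe sets read 699 in CD90+ against 643 in CD90- cells, and 113 in CD90+ against 83.2 in CD90- cells. All 3 were slightly higher in CD90+ cells, by at most 1.36-fold. TGFBR3, or betaglycan, a co-receptor that presents ligand to TGFBR2 and is needed above all for TGFB2, read 856 in CD90+ and 904 in CD90- cells, and on its second probe set 639 in CD90+ and 647 in CD90- cells. Both TGFBR3 ratios were just below 0, at log2 -0.08 and -0.02.

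The ligands differed from each other too. TGFB2 read 551 in CD90+ against 305 in CD90- cells, 1.81-fold, and a second probe set read 262 against 145, also 1.81-fold. These 2 log2 ratios, 0.85 and 0.86, were nearly the same although both were short of 2-fold. The remaining 3 TGFB2 probe sets stayed under the floor on both arrays. TGFB1 read 258 on both arrays, a log2 ratio of 0, and its other probe set was under the floor at 66.0 in CD90+ and 71.0 in CD90- cells. The genes around TGFB2 on chromosome 1 had a median log2 ratio of 0.19 and those around TGFB1 on chromosome 19 one of -0.26.

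SMAD3, the receptor-activated transducer, gave different answers on its measured probe sets. The representative read 617 in CD90+ and 645 in CD90- cells, with a log2 ratio of -0.06, while the second read 270 in CD90+ and 139 in CD90- cells, 1.94-fold higher and a log2 ratio of 0.95. The range of 1.02 between them was reached or passed by 6.30% of the 6188 genes with 2 or more measured probe sets, whose median range was 0.36. No direction is given for SMAD3 on that account.

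The inhibitors parted in the same way as the receptors. PMEPA1, a membrane protein that holds receptor-activated SMADs away from the receptor and is itself induced by TGF-beta, read 4504 in CD90+ against 1640 in CD90- cells on its representative probe set, 2.75-fold. The second read 2801 in CD90+ against 1002 in CD90- cells, 2.80-fold, and the third 992 in CD90+ against 358 in CD90- cells, 2.77-fold. The 3 log2 ratios spanned 0.03. Of the 2847 genes with 3 or more measured probe sets, 11 (0.386%) had every one of them at least 2-fold higher in CD90+ cells, and PMEPA1 is among these. The 50 genes nearest to it on chromosome 20 had a median log2 ratio of 0.13. SKIL, or SnoN, a nuclear co-repressor of SMAD complexes, read 4366 in CD90+ and 3823 in CD90- cells, 1.14-fold. Its other measured probe sets read 351 in CD90+ against 279 in CD90- cells, and 157 in CD90+ against 113 in CD90- cells. All 3 SKIL ratios were above 0, between log2 0.19 and 0.48.

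Of the targets, CCN2, or connective tissue growth factor, a secreted matricellular protein, had the highest ratio of the 10 genes. Its single probe set read 416 in CD90+ against 134 in CD90- cells, 3.11-fold and a log2 ratio of 1.64, above those of 99.3% of measured genes. The signal of CD90- cells was less than 2 times the floor, and with the floor raised to the 75th percentile of signals, 397, the ratio became a bound of log2 0.07. TGFBI, a secreted protein that binds collagens and integrins, read 26536 in CD90+ and 14620 in CD90- cells, 1.82-fold and a log2 ratio of 0.86, higher than that of 96.5% of measured genes. Neighbouring genes had medians of -0.03 for CCN2 and -0.01 for TGFBI.

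Promoter windows are printed for the genes at least 2-fold higher, to show which letters known from TGF-beta and YAP-TEAD response elements they hold. Each covers 250 bases before to 50 bases after an annotated start (RefSeq, GRCh38.p14), and where the table lists several starts the window with the highest G+C share was taken. The motifs searched on both strands were CAGAC, the core of the SMAD-binding element, GGAATG, a core bound by TEAD factors, and TGANTCA, the AP-1 element, which reads the same on either strand. Capitals mark their matches. The windows are chr6:131951323-131951622 on the minus strand for CCN2, chr20:57709966-57710265 on the minus strand for PMEPA1 and chr3:30606351-30606650 on the plus strand for TGFBR2.
CCN2: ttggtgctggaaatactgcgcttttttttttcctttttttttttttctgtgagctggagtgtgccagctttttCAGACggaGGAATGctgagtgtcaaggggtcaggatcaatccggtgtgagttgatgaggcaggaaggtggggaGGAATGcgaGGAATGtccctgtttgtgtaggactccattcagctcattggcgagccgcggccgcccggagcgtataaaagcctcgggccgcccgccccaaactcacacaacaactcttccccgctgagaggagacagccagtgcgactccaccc
PMEPA1: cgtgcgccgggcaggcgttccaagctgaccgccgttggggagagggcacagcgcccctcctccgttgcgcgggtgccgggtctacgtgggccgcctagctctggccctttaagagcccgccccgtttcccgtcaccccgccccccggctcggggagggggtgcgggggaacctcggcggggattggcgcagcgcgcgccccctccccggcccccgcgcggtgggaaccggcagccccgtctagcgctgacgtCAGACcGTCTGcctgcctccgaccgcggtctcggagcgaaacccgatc
TGFBR2: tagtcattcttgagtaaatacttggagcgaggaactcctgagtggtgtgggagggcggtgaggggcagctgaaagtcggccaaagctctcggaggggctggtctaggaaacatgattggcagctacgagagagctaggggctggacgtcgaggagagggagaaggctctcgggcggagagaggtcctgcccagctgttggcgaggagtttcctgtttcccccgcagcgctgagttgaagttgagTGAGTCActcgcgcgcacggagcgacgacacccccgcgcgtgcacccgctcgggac
The CCN2 window held CAGAC once, starting 177 bases before the start site, and GGAATG 3 times, starting 169, 104 and 95 bases before it. The PMEPA1 window held CAGAC 2 times, both in the transcribed bases, in opposite orientation. The TGFBR2 window held TGANTCA once, starting 6 bases before the start site. Over all 35116 windows of the table, CAGAC was found in 45.3%, GGAATG in 14.0% and TGANTCA in 7.71%. The share with 3 or more matches of GGAATG was 0.128%. That cut equals the count in the CCN2 window, so the share is no test of it. All 10 genes had a window, of which 5 held CAGAC, 2 GGAATG and 1 TGANTCA. SKIL and SMAD3, which did not reach 2-fold, also held CAGAC, as did TGFB2. A match describes the letters and not binding.

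The rest of the pathway was read from a list of 87 genes in 6 roles, which includes the 10 genes. Of these 66 were measured, 18 had a representative probe set below the floor on each array, and 3 were not analysed here. CD90+ cells were higher by 2-fold or more in 4, lower in 0, and 62 lay between, beside 2.47% higher and 1.75% lower over all measured genes. The median log2 ratio was 0.12, and 40 ratios were above 0. Without the 10 genes described above, 1 of 56 reached 2-fold higher and the median was 0.08, against 0.01 over all measured genes, of which 51.2% had ratios above 0. At 1.5-fold, 8 of these 56 were higher and 8 lower, where 7.37% of all measured genes were higher and 6.76% lower.

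**Figure D3:**
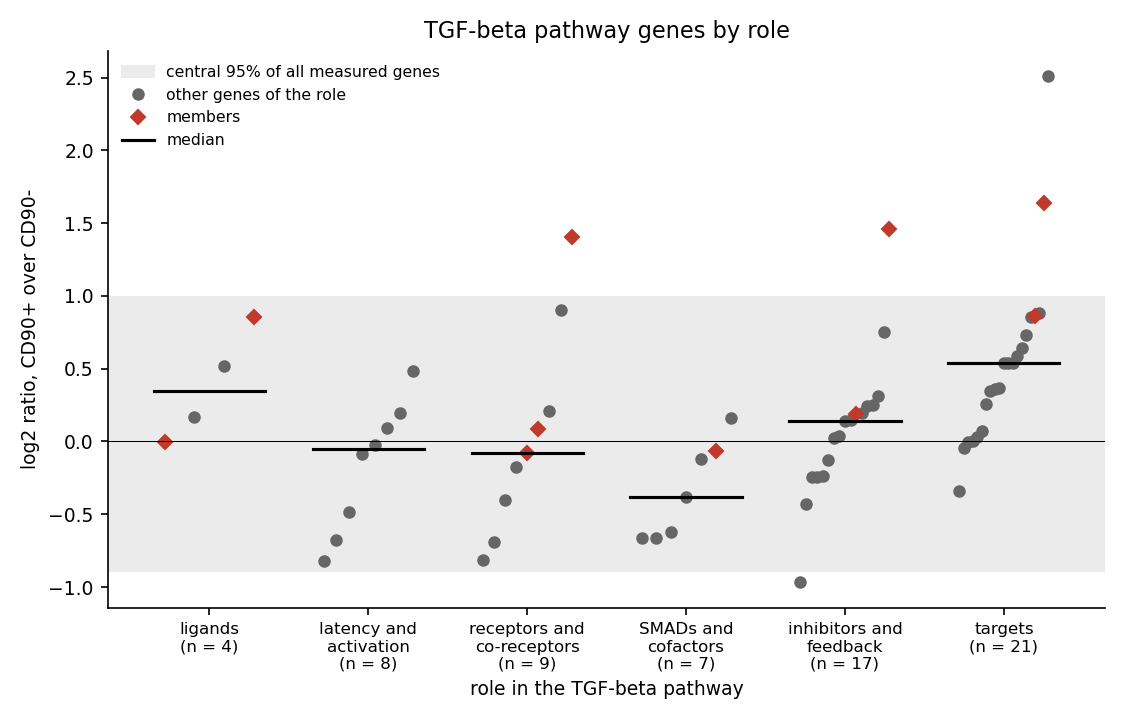
Log2 ratios of CD90+ over CD90- cells are plotted for the 66 measured genes of the wider list, by role on the horizontal axis, with the 10 genes as red diamonds, medians as black lines and the central 95% of all measured genes (-0.89 to 0.99) shaded. Targets have the highest median, 0.54, and SMADs with their cofactors the lowest, -0.38.

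Targets lay highest among the roles. Of 30 listed, 21 were measured, and 2 were higher and 0 lower by 2-fold or more (2.47% and 1.75% of all measured genes). Ratios were above 0 in 18, beside 51.2% of all measured genes, and the median log2 ratio was 0.54. The list was chosen with earlier results of these data known, so these values are no test of the targets. Without CCN2 and TGFBI the median of the other 19 was 0.37. MMP2, the gelatinase A of the extracellular matrix, read 618 in CD90+ against 108 in CD90- cells, 5.70-fold and log2 2.51, on the 1 measured of its 3 probe sets. With the floor at the 75th percentile its ratio became a bound of log2 0.64. Others are named here after their values were seen. CCN1, a matricellular relative of CCN2, read 1904 in CD90+ against 1035 in CD90- cells, 1.84-fold, and its second probe set went the same way at log2 1.09. The EMT factor SNAI2 read 3032 in CD90+ against 1822 in CD90- cells, 1.66-fold. KLF10, an early TGF-beta response factor, read 2102 in CD90+ against 1345 in CD90- cells, 1.56-fold. The basement membrane collagen COL4A1 read 14074 in CD90+ against 9362 in CD90- cells, a log2 ratio of 0.59. At the other end, TAGLN, an actin-binding protein, read 61.5 in CD90+ against 90.8 in CD90- cells, a bound of log2 -0.34. JUNB, ITGA5 and NEDD9 had log2 ratios of 0.07, 0.03 and 0.01. SNAI1, CNN1, TGM2, CDKN2B and ANGPTL4, named after their values were seen, had every probe set under the floor on both arrays. FN1, or fibronectin, and PDGFB had a representative below the floor on each array, but probe sets of the _x_at class, which can pick up other transcripts, were measured for both. The 3 such probe sets of FN1 read 151 in CD90+ against 20.9 in CD90- cells, 81.1 against 7.53, and 21.6 against 79.2, bounds of log2 1.07, 0.18 and -0.15 that differ in sign. PDGFB read 248 in CD90+ and 225 in CD90- cells there.

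SMADs and their cofactors lay lowest. Of 7 measured genes 0 were beyond 2-fold, where 2.47% of all measured genes were higher and 1.75% lower by that much. A ratio above 0 was found in 1 of the 7, beside 51.2% of all measured genes. Their median log2 ratio was -0.38. The acetyltransferase CREBBP read 4190 in CD90+ and 3754 in CD90- cells, and TRIM33, a ubiquitin ligase that binds SMADs, 2003 in CD90+ and 2177 in CD90- cells. SMAD2 and SMAD4 are named after their values were seen. SMAD2 read 1618 in CD90+ against 2568 in CD90- cells, 1.59-fold lower, and all 5 measured probe sets were below 0, from log2 -1.06 to -0.48. SMAD4, the shared partner of the activated SMADs, read 433 in CD90+ against 688 in CD90- cells, also 1.59-fold lower, with all 4 measured probe sets below 0. Both genes lie on chromosome 18, where the 50 nearest genes of each had a median log2 ratio of -0.54. The part of the chromosomal neighbourhood in their ratios was not tested. ZFYVE9 and EP300, also named after their values were seen, lie on chromosomes 1 and 22. ZFYVE9 had a log2 ratio of -0.62 on its 1 measured probe set, with a neighbour median of -0.06. EP300 had one of -0.38, with both probe sets below 0 and a neighbour median of -0.07.

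Among the inhibitors and feedback genes, PMEPA1 was the 1 of 17 measured that was higher by 2-fold or more, and 0 were lower by that much. Over all measured genes 2.47% were higher and 1.75% lower by that much. The median of the other 15 beside PMEPA1 and SKIL was 0.04. STRAP, a receptor-associated inhibitor, read 13969 in CD90+ and 12620 in CD90- cells, and FST, or follistatin, which binds activins, 6847 in CD90+ and 5502 in CD90- cells. SMAD7, the inhibitory SMAD that TGF-beta induces, read 286 in CD90+ and 337 in CD90- cells, log2 -0.24, and BAMBI, a pseudoreceptor, 655 in CD90+ and 639 in CD90- cells; both are named after their values were seen. So is NEDD4L, a ubiquitin ligase of activated SMADs, which was 1.95-fold lower at 787 in CD90+ against 1538 in CD90- cells, with all 4 measured probe sets below 0. NEDD4L too lies on chromosome 18, with the same neighbour median of -0.54. SMAD7, read on its only probe set, lies there as well, with a neighbour median of -0.55.

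By representative probe sets, the remaining receptors, ligands and latency genes gave 0 genes beyond 2-fold apart from TGFBR2. Over all measured genes 2.47% were higher and 1.75% lower. Other probe sets of FBN2, ACVR1C and LTBP4 were past 2-fold lower, at log2 -1.18, -1.05 and -1.05. That of LTBP4 is of the _x_at class, as is its other measured probe set, at log2 -0.40. The representative of LTBP4 was under the floor on both arrays. GDF15 was measured only on an _x_at probe set, at 222 in CD90+ against 120 in CD90- cells, log2 0.89. ACVR1C, LTBP4 and GDF15 are named after their values were seen. Of the receptors and co-receptors other than the 3 described, 6 were measured with a median of -0.29. ACVR1B, a type I receptor for activins, read 2254 in CD90+ and 1950 in CD90- cells, and ACVR1, a type I receptor of the BMP branch, 859 in CD90+ and 971 in CD90- cells. NRP1, a co-receptor named after its values were seen, read 828 in CD90+ and 443 in CD90- cells, 1.87-fold. Endoglin (ENG) and ACVRL1, receptors of endothelial cells and also named after their values were seen, were under the floor on both arrays. The ligand TGFB3 read 187 in CD90+ and 130 in CD90- cells, and GDF11 232 in CD90+ and 206 in CD90- cells. Of 8 measured latency and activation genes, 3 had ratios above 0, beside 51.2% of all measured genes. The median of the 8 was -0.05. FBN2, a fibrillin of the extracellular matrix, read 12632 in CD90+ and 20222 in CD90- cells, 1.60-fold lower, and its 3 measured probe sets ranged from log2 -1.18 to -0.02. ITGB8, the beta subunit of an integrin that activates latent TGF-beta, read 15316 in CD90+ and 14341 in CD90- cells.

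Markers of the line's own type were present on both arrays, and those of other cell types mostly were not. All 7 squamous epithelial markers analysed here were measured, with KRT5 at 19357 in CD90+ and 19208 in CD90- cells. Beyond 2-fold were 0 of them, where 2.47% of all measured genes were higher and 1.75% lower by that much. The summed signal of the 7 was 97322 in CD90+ and 102819 in CD90- cells. Of 9 fibroblast markers 2 were measured, PDGFRA at 107 on both arrays and THY1, the gene of CD90 itself, at 293 in CD90+ against 78.9 in CD90- cells. The other THY1 probe sets read 517 in CD90+ against 35.5 in CD90- cells, and 244 against 49.6. Both were under the floor in CD90- cells. COL1A2, COL3A1, COL6A3, DCN, LUM, PDGFRB and FAP had a representative below the floor on each array, and the summed signal of the 9 was 594 in CD90+ and 321 in CD90- cells, THY1 and PDGFRA included. Signals under the floor have no order, so no direction is drawn from these sums. Of 6 endothelial markers only PECAM1 was measured, on 1 of its 5 probe sets (summed signal of the 6, 234 in CD90+ and 128 in CD90- cells). That PECAM1 probe set read 98.5 in CD90+ and 70.9 in CD90- cells, the latter under the floor. Of 5 leukocyte markers 0 were measured (summed signal 64.2 in CD90+ and 121 in CD90- cells).

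Across the 10 alternative settings, the 7 genes short of 2-fold stayed short of it wherever they had a value, and PMEPA1 stayed above it. CCN2 and TGFBR2 were above it in all but those settings where the floor left only a lower bound: at least log2 0.07 for CCN2 with the higher floor, and for TGFBR2 at least 0.88 by the mean over probe sets and at least 0.35 by the least changed one. These bounds do not place either gene below 2-fold.

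**Figure D4:**
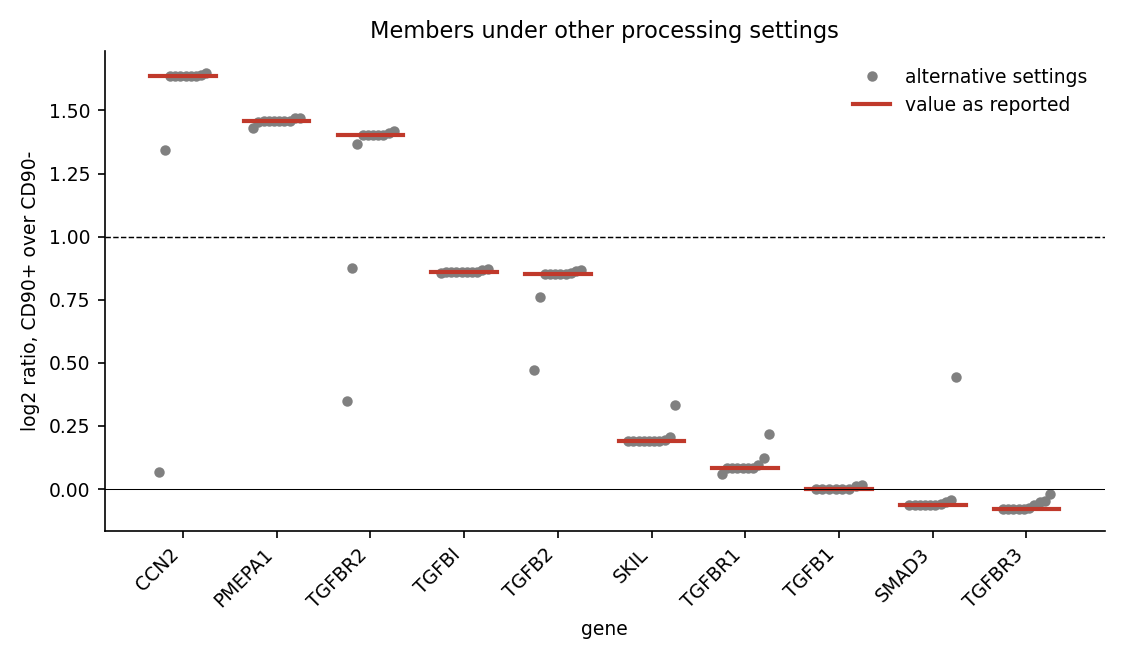
For each of the 10 genes, the log2 ratio of CD90+ over CD90- cells as reported (red line) is plotted with its values under up to 10 other processing settings (grey points), and a dashed line marks 2-fold. PMEPA1 stays between 1.43 and 1.47, and the low points of CCN2 at 0.07 and of TGFBR2 at 0.88 and 0.35 are lower bounds set by the floor.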

How the data were processed

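The deposited table holds linear signal intensities of 54675 probe sets on 2 arrays. The authors made them with MAS5, per the submitters' processing notes; its version is not given in the sources used here. Because MAS5 takes mismatch from perfect-match signal, dim probe sets give noisy ratios. Gene names came from the platform annotation, with symbols updated by gene identifier against RefSeq genes of GRCh38.p14: 41091 had 1 symbol, of which 41037 matched, 1801 had several and were not named, 11721 were unnamed here and 62 were controls. The _x_at class stood for a gene only where it had no other probe set. Log2 ratios were CD90+ over CD90-, with the floor at the geometric mean of both arrays' medians. With 1 array per population there is no test, and precision is limited by the number of arrays. The 10 genes, the wider list and the markers were chosen with earlier results of these data known. In each role the text names up to 4 other genes in each direction past 2-fold, or else the 2 with the highest signal; other genes are said to be named after their values were seen, apart from the cell type markers. The calling steps were also run on simulated data with planted changes, as a check of the code and not of the calls given here. Python 3.11.15, numpy 2.4.6, pandas 2.3.3 and matplotlib 3.10.9 were used.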

Additional observations from a re-analysis of the deposited data

How the results depend on the processing

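With 10 alternatives, 3 of the 10 genes were at least 2-fold higher in every setting except the floor at the 75th percentile, the mean over probe sets and the least changed probe set, each of which gave 2 because a floored signal left CCN2 or TGFBR2 only a lower bound, and 0 were at least 2-fold lower in any. Their median log2 ratio, 0.52, was 0.19 with the floor at the 75th percentile, 0.65 by the mean over probe sets, 0.27 by the least changed probe set and 0.85 without the _x_at, _s_at and _a_at classes. In the wider list 9 of 81 measured genes were higher and 1 lower with the floor at the 25th percentile. With it at the 75th 2 of 49 were higher, where the main setting gave 4 of 66. The median was 0.22 by the mean over probe sets. Of all measured genes 4.34% were at least 2-fold higher and 3.06% lower with no floor, 6.51% higher and 4.85% lower with the 25th percentile as floor, and 1.10% higher and 0.813% lower with the 75th; 1.14% were lower by the least changed probe set. A higher floor turns ratios with a dim side into smaller bounds by construction; other causes were not tested. By the mean over probe sets SMAD3 had a log2 ratio of 0.45. TGFB1 had a value in 8 of the 10 settings, all but the higher floor and the one without shared classes, and its log2 ratio, near 0, was above 0 in 2 of them. No paired analysis was possible because each population had 1 array.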

Other observations

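ACVR2A and ACVR1C, activin receptors on chromosome 2, are named after their values were seen. Neither reached a 2-fold difference on its representative probe set. The second ACVR1C probe set did, at 76.5 in CD90+ against 159 in CD90- cells, log2 -1.05. The second of ACVR2A was at log2 -0.73. ACVR2A, a type II activin receptor, read 355 in CD90+ against 625 in CD90- cells, a log2 ratio of -0.81, and ACVR1C, a type I receptor, 116 in CD90+ against 187 in CD90- cells, -0.69. The median log2 ratio of the 50 nearest genes was -0.41 and -0.40. Over the 767 genes of chromosome 2 that reached the floor on both arrays the median was -0.28, and 79.8% of them had ratios below 0. On chromosome 18, which holds SMAD2, SMAD4, SMAD7 and NEDD4L, the median over 164 genes was -0.24. Whether the receptor values follow the chromosome was not tested.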
